A study of Mus musculus with 32 samples.

Results

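Activated helper T cells are known for a set of secreted cytokines, 6 of which are described here out of 24302 genes counted: Il3 (interleukin-3), Csf2 (GM-CSF), Lif (leukaemia inhibitory factor), Osm (oncostatin M), Tnf (tumour necrosis factor) and Lta (lymphotoxin alpha). They were chosen by name with earlier results of these data known, so their medians beside all genes are not those of an unselected set. All 6 were among the 12332 genes that passed the filter on low counts. The libraries hold polyadenylated RNA of CD4 positive T cells taken from the spleen and 2 sites of lymph nodes of C57BL/6J mice, either WT or labelled Nur77KO (Nur77 is the protein of Nr4a1, a nuclear receptor induced by antigen receptor signals). Each genotype has 4 conditions with 4 libraries each, 32 in all: unstimulated, stimulated through CD3 and CD28 by antibodies over 12 h, and stimulated with the inhibitor XCT790 or with CompA, each at 10 µg per ml. XCT790 is known as an inverse agonist of the oestrogen-related receptor alpha, and what CompA is was not given in the sources used here. All groups share the strain and the tissue. Ages, the number of mice, pooling and what the numbered replicates stand for were not given either, so p-values measure the spread between these libraries, which may be partly technical.

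As background, IL-3 and GM-CSF signal through their own alpha chains and a shared beta chain to JAK2 and STAT5 and act on myeloid cells. LIF and oncostatin M belong to the IL-6 family and signal through gp130 (Il6st) paired with Lifr or Osmr. TNF binds the receptors of Tnfrsf1a and Tnfrsf1b. Lymphotoxin alpha binds the same receptors as a soluble trimer, and the lymphotoxin beta receptor (Ltbr) when it is anchored in the membrane by lymphotoxin beta (Ltb). In T cells the genes are switched on by NFAT, AP-1 and NF-kB factors after antigen receptor ligation, and AU-rich elements in their messages are known to bind proteins that speed up decay.

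The libraries held 16020288 to 23687940 gene counts. Nr4a1 was not lower in the libraries labelled KO: its mean was 94.2 CPM unstimulated and 332 CPM stimulated, against 71.6 and 166 CPM in WT. The genotype is therefore written as KO-labelled throughout, and whether the deposited counts fall outside the altered part of the gene was not tested. CPM are counts scaled to the library total, here after TMM factors, which correct for a few genes taking a large share of a library. The 8 markers of CD4 T cells summed to 3960 to 4440 CPM on average in all 8 groups, so the labelled cell type had its markers. The stimulated WT libraries stood apart. The 13 counted macrophage markers, C1qa and Lyz2 among them, summed to 440 to 1080 CPM there, against 12.4 to 17.4 CPM in stimulated KO-labelled cells and 6.25 to 26.0 CPM under either inhibitor. In unstimulated cells the sum was 1810 to 2800 CPM in WT and 728 to 1690 CPM in KO-labelled libraries. A set of 93 genes that fell below 2% of their unstimulated level in the other 5 stimulated groups remained at 0.195 to 0.348 of that level in stimulated WT libraries, most in replicate 2. Markers of B cells were highest in replicate 2 of the KO-labelled libraries, at 735 CPM unstimulated and 244 CPM stimulated, against 32.5 to 157 CPM in the other KO-labelled libraries of those conditions. The 2 markers of CD8 T cells were also highest in that replicate, at 71.3 CPM unstimulated and 57.9 CPM stimulated, against 27.1 to 33.3 CPM.

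The 6 genes lie in 3 neighbouring pairs, given here in GRCm38 coordinates of the GENCODE annotation. All 6 are protein-coding. Il3 (chr11:54265303-54267277, minus strand) and Csf2 (chr11:54247271-54249667, minus strand) are 15.6 kb apart. Osm (chr11:4236420-4241026) and Lif (chr11:4257557-4272514) lie on the plus strand 16.5 kb apart. Tnf (chr17:35199381-35202007) and Lta (chr17:35203165-35205351) are both on the minus strand and only 1.16 kb apart. The upstream bases of Il3 and Tnf are shown because these genes changed with stimulation in both genotypes and have the TATA box letters TATAA near the start. The windows of Lta and Lif overlap their own annotated gene and are not shown. That of Csf2, without TATAA, is not shown either. The bases shown are the 250 before the RefSeq start (GRCm38.p6) on the gene's strand, and capitals mark the motif matches. Il3 is from chr11:54267280-54267529 and Tnf from chr17:35202008-35202257.

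Il3: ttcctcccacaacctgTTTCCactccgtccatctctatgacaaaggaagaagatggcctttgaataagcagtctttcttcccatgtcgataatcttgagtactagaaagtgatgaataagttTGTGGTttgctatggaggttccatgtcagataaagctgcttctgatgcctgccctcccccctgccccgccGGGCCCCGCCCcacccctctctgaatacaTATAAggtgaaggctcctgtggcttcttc

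Tnf: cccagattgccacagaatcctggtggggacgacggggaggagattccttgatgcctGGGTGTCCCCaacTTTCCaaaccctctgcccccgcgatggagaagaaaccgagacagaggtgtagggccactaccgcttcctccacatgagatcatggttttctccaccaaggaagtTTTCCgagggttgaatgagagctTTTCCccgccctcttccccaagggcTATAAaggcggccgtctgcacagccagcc

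The motifs searched were GGAAA (the NFAT core), TGANTCA (AP-1), GGG and CC with 5 free bases between them (NF-kB) and TGTGGT (RUNX) on both strands, and TATAA on the gene's strand. Overlapping matches were counted separately, and the NF-kB matches on opposite strands overlap each other. Both genes had TATAA at positions -29 to -25, counted back from the RefSeq start. Il3 had 1 NFAT core, 2 NF-kB matches and 1 RUNX match. Tnf had 3 NFAT cores and 2 NF-kB matches. In the same window Csf2 had 2 NFAT cores and no other match, Lif had 1 NFAT core, 1 AP-1, 5 NF-kB and 1 RUNX match, and Lta had 2 NFAT cores, 2 NF-kB matches and TATAA at -167. The Csf2 window, chr11:54249900-54250149, lies apart from the GENCODE start of the gene at 54249667. The bases between them were not searched, so the counts do not describe the bases next to that start. Osm has no upstream sequence shown. Of 32817 RefSeq windows of the same length, 55.6% held the NFAT core, 45.8% the NF-kB letters, 14.0% the RUNX letters, 6.75% the AP-1 letters and 16.0% TATAA. A match is a description of letters, not of a bound site.

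The messages of these genes are also known for AU-rich elements, whose core pentamer is ATTTA in the DNA letters. The 30 bases of each 3' untranslated region with the most pentamers (GRCm38, gene strand, pentamers in capitals) show how they differ.

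Csf2, chr11:54247325-54247354: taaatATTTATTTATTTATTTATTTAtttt

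Tnf, chr17:35199678-35199707: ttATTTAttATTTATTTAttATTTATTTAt

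Lif, chr11:4272414-4272443: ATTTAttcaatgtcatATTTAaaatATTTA

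Osm, chr11:4240945-4240974: ttttatATTTAtaaggcctATTTAtaatgt

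Lta, chr17:35203408-35203437: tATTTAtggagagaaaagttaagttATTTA

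Il3, chr11:54265303-54265332: atgccatcaaatgtcttatcaATTTAtcta

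Csf2 and Tnf had 5 pentamers each in these 30 bases, in overlapping runs in Csf2 and in 3 blocks in Tnf. Over the whole region Csf2 had 9 pentamers in 317 bases, 28.4 per kb, and only 3 of 11353 tested genes with such a region had a higher density. Tnf had 8 in 764 bases (10.5 per kb, 116 genes higher) and Il3 had 1 in 101 bases (9.9 per kb). Osm had 6 in 1017 bases, Lta 3 in 572 bases and Lif 7 in 3180 bases (2.2 per kb), beside a median of 1.22 per kb over the tested genes. Within the annotated regions, the longer form ATTTATTTA was found 5 times in Csf2, 2 times in Tnf and 1 time in Lta. It was not found in those of Il3, Lif and Osm, and occurred in 5.7% of the tested genes. The Il3 bases shown run to the annotated end of the gene, and bases beyond the annotated ends were not searched.

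**Figure D1:**
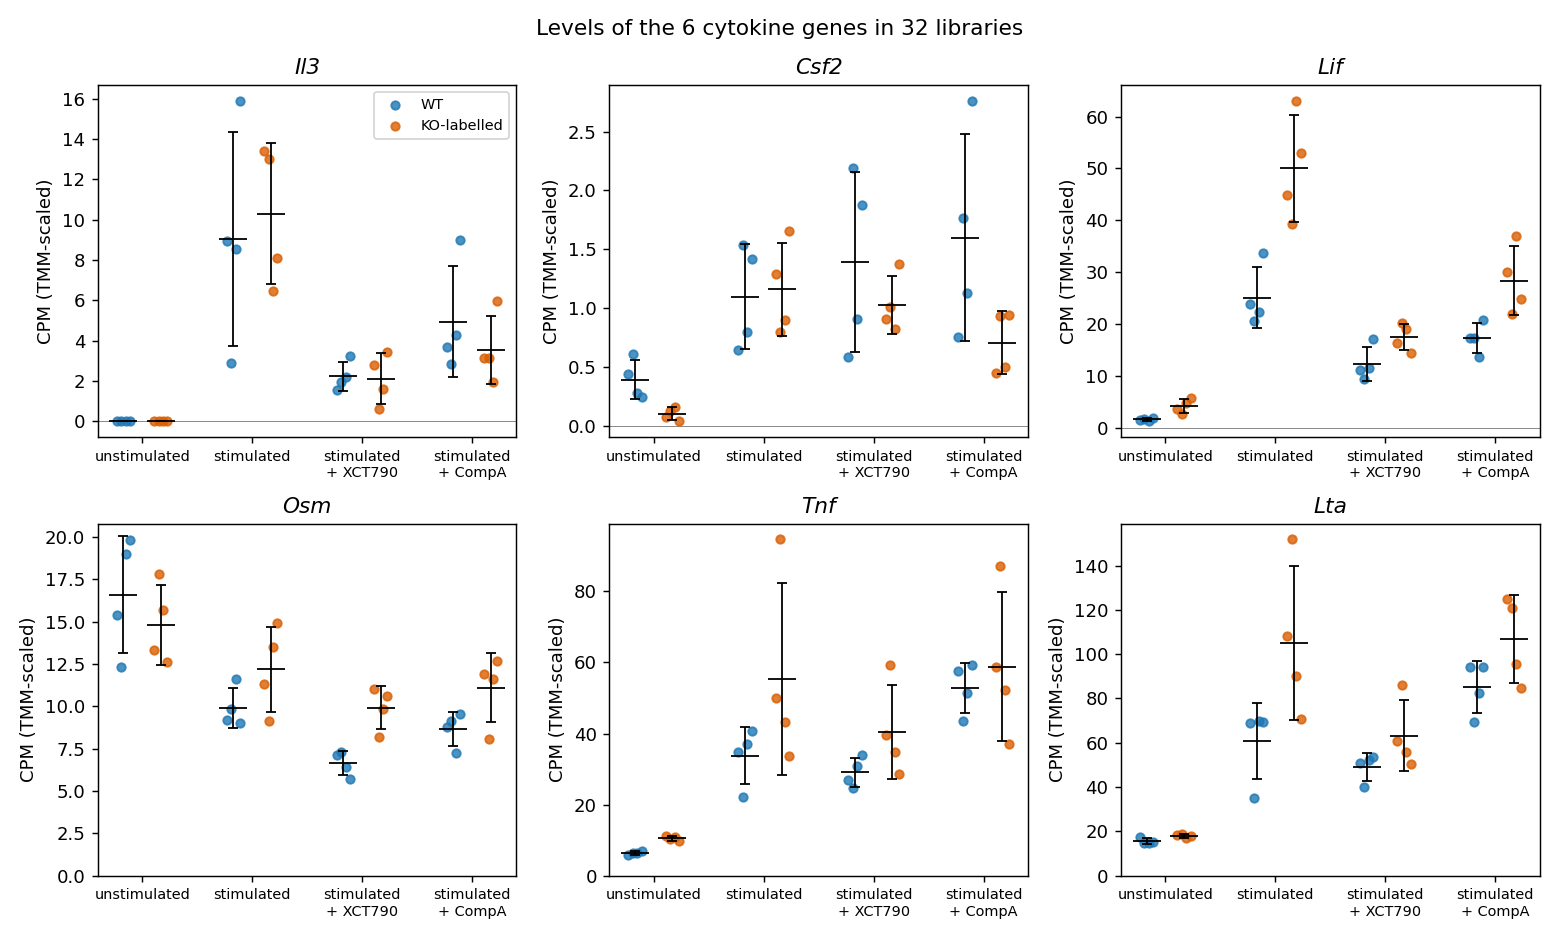
Levels of the 6 genes in CPM (vertical axes, linear, 1 panel per gene) in the 8 groups, with 1 point per library, the mean as a dash and the SD as bars (4 libraries per group). Il3 is at 0 in all unstimulated libraries, Osm is highest without stimulation, and Tnf and Lta spread most in stimulated KO-labelled cells.

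Stimulation raised 5 of the 6 genes in both genotypes, by 1.48 to 3.92 on the log2 scale in WT for those that had counts before, and Osm fell in WT. In WT cells Il3, Csf2, Lif, Tnf and Lta rose and Osm fell, where 73.3% of all tested genes were called, 34.5% higher and 38.8% lower (edgeR quasi-likelihood test, Benjamini-Hochberg adjusted p under 0.05 over all tested genes). The same 5 rose in KO-labelled cells, where 81.7% were called, 39.3% higher and 42.4% lower, so being called is common here and the sizes matter more. The members' median log2 change was 2.18 in WT and 2.98 in KO-labelled cells, beside -0.11 and -0.07 over all tested genes. Another scaling, by upper quartiles, placed the median of all genes at -0.33 in both genotypes.

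Il3, a growth factor for mast cells, basophils and progenitors, had no count in any of the 8 unstimulated libraries. The 4 stimulated WT libraries held 8.96, 2.86, 8.53 and 15.9 CPM and the 4 KO-labelled ones 13.4, 13.0, 6.45 and 8.11 CPM. With 3 counts over the 4 unstimulated libraries taken as the floor (counting error only), the stimulated mean was at least 233-fold higher in WT and at least 327-fold higher in KO-labelled cells. The WT library with the lowest Il3 was replicate 2.

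Csf2, which drives granulocyte and macrophage growth, stayed the lowest of the 6 per length of message in all stimulated groups. Its unstimulated values were 0.446, 0.61, 0.278 and 0.25 CPM in WT and 0.0782, 0.132, 0.165 and 0.0436 CPM in KO-labelled libraries, from 5 to 12 and 1 to 4 counts. Stimulated libraries held 0.644, 1.54, 0.798 and 1.42 CPM in WT and 1.29, 0.803, 0.9 and 1.66 CPM in KO-labelled cells. No stimulated library overlapped the unstimulated ones of its genotype, and Csf2 rose by 1.48 ± 0.45 (log2, SE) in WT (edgeR adjusted p = 0.005). The KO-labelled rise was 3.41 ± 0.53 (edgeR adjusted p = 1.1e-06).

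Lif, an IL-6 family cytokine that acts through Lifr and gp130, went from 1.59, 1.68, 1.33 and 1.96 CPM to 23.8, 20.6, 22.3 and 33.7 CPM in WT. In KO-labelled libraries it went from 3.71, 2.77, 4.71 and 5.76 CPM to 44.8, 39.2, 63.0 and 52.9 CPM. Groups did not overlap, and the rise was 15.1-fold in WT (log2 3.92 ± 0.25, edgeR adjusted p = 4.7e-14) and 11.8-fold in KO-labelled cells (log2 3.56 ± 0.23, edgeR adjusted p = 2.4e-14).

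Osm, its relative and neighbour, was highest without stimulation: 15.4, 12.3, 19.0 and 19.8 CPM in WT and 13.3, 17.8, 15.7 and 12.6 CPM in KO-labelled libraries. Stimulated WT libraries held 9.19, 9.84, 11.6 and 9.03 CPM, all below the unstimulated ones, and Osm fell by 0.75 ± 0.16 on the log2 scale (edgeR adjusted p = 0.00022). In KO-labelled cells stimulated libraries held 11.3, 9.14, 13.5 and 14.9 CPM and overlapped the unstimulated range, with a log2 difference of -0.28 ± 0.16 (edgeR adjusted p = 0.11). That value depended on the scaling: in edgeR with library totals it was -0.61 (adjusted p = 0.00178), with upper-quartile factors -0.54 (0.00395), with RLE factors -0.34 (0.0497), and without stimulated KO-labelled replicate 4 it was -0.41 (0.0315). The macrophage markers moved in the same direction as Osm, with 12 of 12 tested lower after stimulation in each genotype. Their part in the Osm result was not tested, and in bulk RNA fewer cells of a type and less RNA per cell cannot be told apart.

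Tnf, the best known of the inflammatory members, had narrow unstimulated groups at 5.8, 6.45, 6.28 and 7.05 CPM in WT and 11.3, 10.4, 10.8 and 9.68 CPM in KO-labelled libraries. Stimulated WT libraries held 34.9, 22.2, 37.2 and 40.7 CPM and KO-labelled ones 50.1, 94.6, 43.2 and 33.7 CPM. The rise was 5.27-fold in WT (log2 2.4 ± 0.27, edgeR adjusted p = 1.1e-08) and 5.24-fold in KO-labelled cells (log2 2.39 ± 0.27, edgeR adjusted p = 3e-09). The high library of the stimulated KO-labelled group was replicate 2. It also had the highest sums of B cell, CD8 T cell and neutrophil markers in that group, and the part of these markers in the Tnf value was not tested.

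Lta, its neighbour, was the most abundant member per length of message in all 8 groups. It went from 17.5, 14.7, 14.8 and 15.2 CPM to 69.0, 35.1, 69.7 and 69.4 CPM in WT, and from 18.6, 18.7, 17 and 17.8 CPM to 108, 152, 90.0 and 70.9 CPM in KO-labelled libraries. The WT replicate 2 and the KO-labelled replicate 2 stood out in the same direction as for Tnf. Lta rose 3.91-fold in WT (log2 1.97 ± 0.21, edgeR adjusted p = 3.4e-09) and 5.85-fold in KO-labelled cells (log2 2.55 ± 0.21, edgeR adjusted p = 8.5e-12).

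Ordered per length of message (RPKM over the exons of each gene in GENCODE), Lta, Osm and Tnf led in unstimulated cells of both genotypes, and Lta, Tnf and Il3 led in stimulated cells without inhibitor. In stimulated WT cells the mean RPKM was 44.0 for Lta, 20.6 for Tnf, 14.4 for Il3, 5.76 for Lif, 4.37 for Osm and 1.37 for Csf2. Stimulated KO-labelled cells had 76.3, 33.8, 16.3, 11.5, 5.36 and 1.45 in the same order. Lif moved from 0.377 RPKM, under Csf2 at 0.495, to above Osm in WT.

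**Figure D2:**
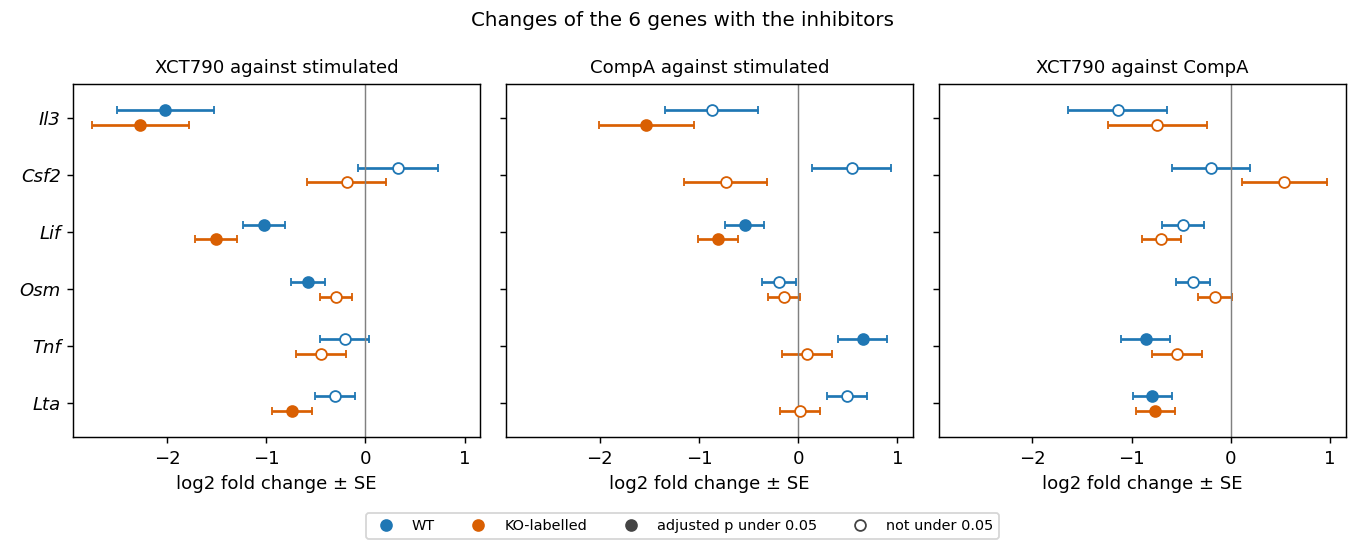
Log2 fold changes (horizontal axes, with SE bars) of the 6 genes for XCT790 against stimulation alone, CompA against stimulation alone and XCT790 against CompA, in WT (blue) and KO-labelled cells (orange), with filled points at adjusted p under 0.05. Il3 and Lif lie left of zero in the first and second panels in both genotypes, and Tnf and Lta lie left of zero in the third.

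With XCT790, Il3 and Lif fell in both genotypes relative to stimulation alone. In WT cells Il3, Lif and Osm were called lower, where 28.6% of all tested genes were called, 8.4% higher and 20.2% lower. In KO-labelled cells Il3, Lif and Lta were called lower, where 11.3% were called, 6.2% higher and 5.07% lower. Il3 held 1.52, 1.94, 2.21 and 3.22 CPM in WT and 2.78, 0.592, 1.6 and 3.43 CPM in KO-labelled cells, which is 24.6% and 20.5% of the mean without inhibitor. It fell by 2.02 ± 0.49 (log2) in WT (edgeR adjusted p = 0.0032). In KO-labelled cells it fell by 2.27 ± 0.49 (edgeR adjusted p = 0.0052), and libraries overlapped in WT through replicate 2 of the stimulated group.

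Lif with XCT790 held 11.2, 9.41, 11.6 and 17.2 CPM in WT and 16.4, 20.2, 19.0 and 14.5 CPM in KO-labelled cells, with no overlap with stimulation alone. In WT it fell by 1.02 ± 0.21 (edgeR adjusted p = 0.00034), and the KO-labelled difference was -1.51 ± 0.21 (edgeR adjusted p = 3.9e-05). The KO-labelled level was 35.1% of that without inhibitor and the WT level 49.3%. Both stayed above the unstimulated libraries, 7.45-fold in WT and 4.14-fold in KO-labelled cells.

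Osm held 7.14, 7.29, 6.42 and 5.74 CPM with XCT790 in WT, below all stimulated libraries, and fell by 0.58 ± 0.17 (edgeR adjusted p = 0.0099). With the unstimulated share, estimated from the 93 genes, subtracted for every gene from the stimulated WT libraries, the edgeR difference was -0.22 (adjusted p = 0.516). In KO-labelled cells Osm held 11.0, 8.17, 9.86 and 10.6 CPM and differed by -0.30 ± 0.16 (edgeR adjusted p = 0.26).

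Lta with XCT790 held 50.7, 39.9, 52.4 and 53.6 CPM in WT and 60.7, 86.2, 55.7 and 50.3 CPM in KO-labelled cells. It fell by 0.74 ± 0.2 in KO-labelled cells (edgeR adjusted p = 0.017), though libraries overlapped, and lost the call without stimulated replicate 2 (-0.53, adjusted p = 0.0663), without XCT790 replicate 3 (0.0578) or 4 (0.0606) and in a fit of only the groups compared (0.122). In WT the difference was -0.31 ± 0.2 (edgeR adjusted p = 0.27), and with the unstimulated share subtracted it was -0.68 (0.0323). Tnf held 26.9, 24.8, 30.8 and 34.1 CPM in WT and 39.6, 59.2, 34.7 and 28.5 CPM in KO-labelled cells. Tnf did not pass in either genotype (edgeR adjusted p = 0.57 and 0.27). Each of the 4 KO-labelled runs of library numbers had less Tnf with XCT790 than without, and with the run as a block the difference was -0.41 (edgeR adjusted p = 0.0384).

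Unlike Il3, Csf2 was not called with XCT790 in either genotype. With XCT790 it held 0.585, 2.19, 0.909 and 1.88 CPM in WT and 0.908, 1.01, 0.822 and 1.38 CPM in KO-labelled cells. The log2 differences were 0.33 ± 0.4 and -0.19 ± 0.4 (edgeR adjusted p = 0.58 and 0.81). The groups overlapped, and at 10 to 36 counts per library the spread was wide. Compared directly, the log2 ratio of Il3 to Csf2 counts changed with XCT790 by -2.07 in WT and -2.33 in KO-labelled cells. Neither passed after adjustment (exact two-sided permutation p = 0.0857 and 0.0286, adjusted 0.2 and 0.1).

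With CompA, Lif fell in both genotypes, by less than with XCT790 in the fitted values. Of the 6 members Lif was called lower and Tnf higher in WT cells, where 32.8% of all tested genes were called, 11.6% higher and 21.3% lower. Il3 and Lif were called lower in KO-labelled cells, where 19.3% were called, 10.2% higher and 9.11% lower. Lif held 17.4, 17.4, 13.6 and 20.8 CPM in WT and 30.1, 21.9, 36.9 and 24.8 CPM in KO-labelled cells. In WT it fell by 0.54 ± 0.2 (edgeR adjusted p = 0.044), and the KO-labelled difference was -0.81 ± 0.2 (edgeR adjusted p = 0.0051). Leaving out CompA replicate 1, 2 or 3 or stimulated replicate 4 ended the WT call (adjusted p 0.0779 to 0.208), as did RLE factors (0.0551), DESeq2 (0.0693) and no filter (0.0611).

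Il3 with CompA held 3.68, 2.81, 4.28 and 8.99 CPM in WT and 3.15, 3.13, 1.93 and 5.95 CPM in KO-labelled cells. The WT groups overlapped and the difference of -0.87 ± 0.47 did not pass (edgeR adjusted p = 0.16), while with the unstimulated share subtracted it was -1.33 (0.0378) and without CompA replicate 4 it was -1.35 (0.0468). In KO-labelled cells no library overlapped and Il3 fell by 1.53 ± 0.48 (edgeR adjusted p = 0.026). Dropping replicate 1 or 2 of either group or CompA replicate 3 ended that call (adjusted p 0.0507 to 0.0878), as did dropping the second KO-labelled run from all groups (-1.35, edgeR adjusted p = 0.0844).

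Tnf with CompA held 57.5, 43.6, 51.4 and 59.2 CPM in WT, above all 4 stimulated libraries, and was higher by 0.65 ± 0.25 (edgeR adjusted p = 0.048). In KO-labelled cells it held 58.7, 87.1, 52.3 and 37.2 CPM, with a difference of 0.09 ± 0.25 (edgeR adjusted p = 0.85). The WT call was near the threshold: leaving out any 1 of the first 3 stimulated libraries, or CompA replicate 1, 3 or 4, ended it (edgeR adjusted p 0.0661 to 0.187). So did library totals (0.0841), upper-quartile factors (0.0528), no filter (0.056) and subtraction of the unstimulated share (0.24, edgeR adjusted p = 0.527).

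Lta with CompA held 94.1, 69.6, 82.7 and 94.4 CPM in WT and 125, 121, 95.4 and 84.7 CPM in KO-labelled cells. The differences were 0.49 ± 0.2 (edgeR adjusted p = 0.063) and 0.02 ± 0.2 (edgeR adjusted p = 0.97). In WT the call was gained with limma-voom (0.53, adjusted p = 0.0463) and without CompA replicate 2 (0.58, 0.0395). Osm and Csf2 were called in neither genotype with CompA (edgeR adjusted p 0.24 to 0.61). Osm held 8.76, 9.16, 7.27 and 9.53 CPM in WT and 11.9, 8.07, 11.6 and 12.7 CPM in KO-labelled cells. Csf2 held 0.759, 1.77, 1.13 and 2.76 CPM in WT and 0.45, 0.939, 0.506 and 0.946 CPM in KO-labelled cells.

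Set side by side at the same dose and time, the 2 inhibitors differed in their Tnf and Lta levels. In WT cells both were lower with XCT790 than with CompA, where 9.41% of all tested genes were called, 4.33% higher and 5.08% lower. In KO-labelled cells Lta was lower, where 3.24% were called, 1.97% higher and 1.27% lower. The WT libraries did not overlap: Tnf was lower by a log2 difference of -0.86 ± 0.25 (edgeR adjusted p = 0.029) and Lta by -0.79 ± 0.2 (edgeR adjusted p = 0.011). In KO-labelled cells the Lta difference was -0.76 ± 0.2 (edgeR adjusted p = 0.032), with overlapping libraries, and that of Tnf was -0.54 ± 0.25 (edgeR adjusted p = 0.30). The Tnf call in WT was lost without replicate 1 of either group, XCT790 replicate 2 or 3 or CompA replicate 4 (adjusted p 0.0608 to 0.0801). The KO-labelled Lta call was lost without replicate 1 of either group, CompA replicate 2 or XCT790 replicate 3 or 4 (0.0747 to 0.102) and in a fit of only the groups compared (0.0969).

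Lif was also lower with XCT790 than with CompA by fitted differences of -0.48 ± 0.21 in WT (edgeR adjusted p = 0.16) and -0.70 ± 0.2 in KO-labelled cells (edgeR adjusted p = 0.054), neither of which passed. The KO-labelled Lif libraries of the 2 inhibitors did not overlap, and the call was gained with DESeq2 (adjusted p = 0.0397), limma-voom (0.0368), upper-quartile factors (0.0496), without the second KO-labelled run (0.0214) and without CompA replicate 2 (0.0336). With the run of library numbers as a block, Lif passed in WT (-0.50, edgeR adjusted p = 0.0243) and KO-labelled cells (-0.67, 0.00477), Il3 passed in WT (-1.08, 0.0484) and Tnf passed in KO-labelled cells (-0.53, 0.0193), which made 4 and 3 members called. In a fit of only the WT groups compared, Il3 (0.0462) and Osm (0.0427) passed too.

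Against unstimulated cells, all 6 members were called under both inhibitors in both genotypes, Osm lower and the other 5 higher. Of all tested genes 79.1% were called with XCT790 in WT (37.7% higher, 41.3% lower) and 79.1% in KO-labelled cells (39.6% and 39.4%). With CompA 78.3% were called in WT (37.2% and 41.1%) and 78.4% in KO-labelled cells (39.2% and 39.3%). The Osm log2 difference was -1.32 with XCT790 in WT and -0.42 with CompA in KO-labelled cells (edgeR adjusted p = 0.02), the latter call lost without the second KO-labelled run (-0.20, 0.238) and without replicate 2 of either group (0.0905 and 0.0837). Macrophage markers in these groups were 6.25 to 26.0 CPM in sum, with Vsig4 at 0 in all 4 groups. These contrasts share the unstimulated libraries with those of stimulation alone.

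**Figure D3:**
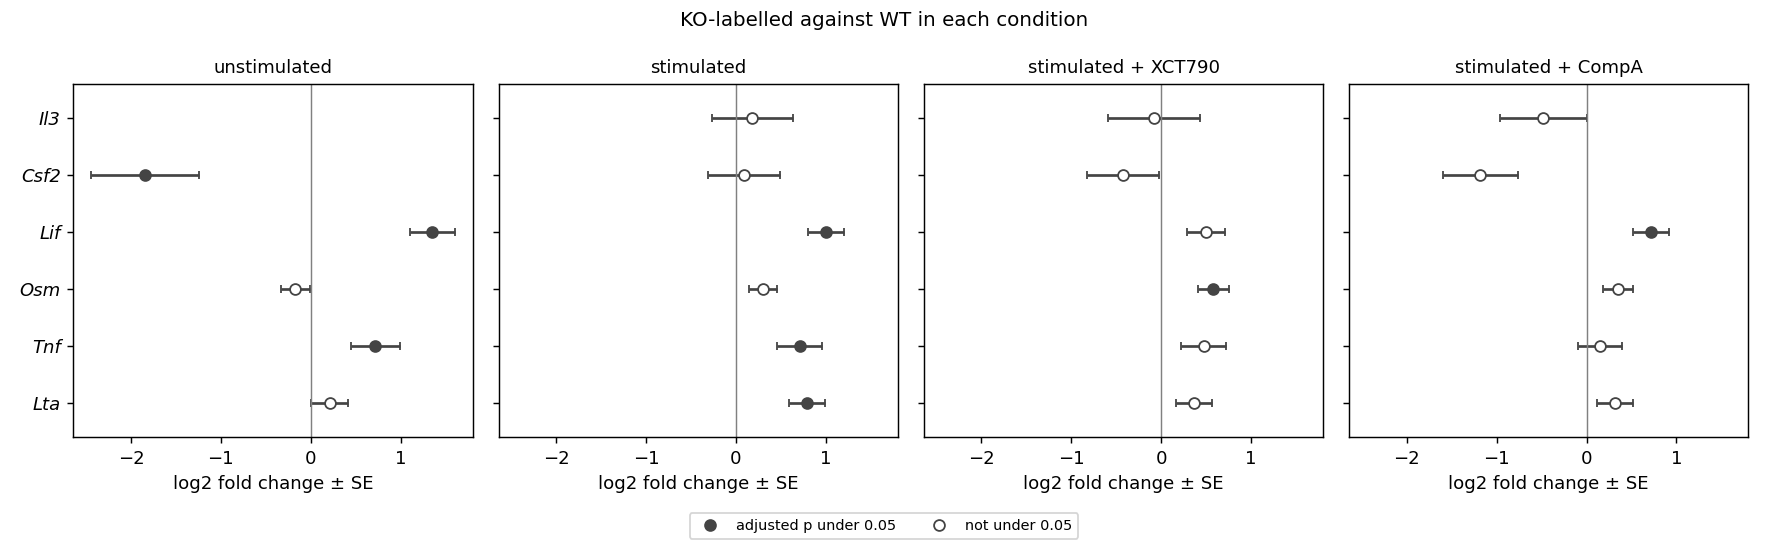
Log2 fold changes (horizontal axes on 1 common scale, with SE bars) of the 6 genes in KO-labelled against WT cells, in 1 panel per condition, with filled points at adjusted p under 0.05. Lif lies right of zero in all 4 panels, and Il3 has no unstimulated value because it had no count there.

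Between the genotypes, Lif was higher in KO-labelled cells in 3 of the 4 conditions. In unstimulated cells Lif and Tnf were higher and Csf2 lower, where 36.1% of all tested genes were called, 12.5% higher and 23.6% lower. Lif differed 2.55-fold (log2 1.35 ± 0.25, edgeR adjusted p = 0.00032), Tnf 1.64-fold (log2 0.72 ± 0.27, edgeR adjusted p = 0.041) and Csf2 3.58-fold in the other direction (log2 -1.84 ± 0.6, edgeR adjusted p = 0.019), each without overlap. In the same contrast 8 of 12 tested macrophage markers were lower in KO-labelled cells, with mean sums of 1150 against 2320 CPM, and their part in these differences was not tested. The Csf2 difference rests on 30 counts over the WT libraries and 10 over the KO-labelled ones, and its call was lost without WT replicate 1 or 2 or KO-labelled replicate 1 or 4 (adjusted p 0.0515 to 0.0649). The Tnf call was lost without replicate 1, 2 or 3 of either genotype (0.0593 to 0.0995), with limma-voom (0.105) and with no filter (0.0509).

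In stimulated cells Lif, Tnf and Lta were higher in KO-labelled cells, where 25.2% of all tested genes were called, 7.31% higher and 17.9% lower. Lif was 1.99-fold higher (log2 1.0 ± 0.2, edgeR adjusted p = 0.00041) and Lta 1.73-fold (log2 0.79 ± 0.2, edgeR adjusted p = 0.0038), both without overlap. Tnf was 1.64-fold higher (log2 0.71 ± 0.25, edgeR adjusted p = 0.037) with overlapping libraries. The macrophage markers, 12 of 12 tested lower in the KO-labelled group, differed across the same contrast. With the unstimulated share subtracted from the WT libraries, Lif (0.53, edgeR adjusted p = 0.0962), Lta (0.42, 0.207) and Tnf (0.30, 0.53) did not pass. With that share subtracted Osm was called instead (0.66, 0.0132), as it was without the second KO-labelled run (0.41, 0.034) or stimulated KO-labelled replicate 2 (0.45, 0.0439). Tnf lost its call without WT replicate 1, 2 or 3 (0.0559 to 0.17), without KO-labelled replicate 2 (0.37, 0.229), without its whole run (0.32, 0.182), with library totals (0.054) and with limma-voom (0.0661), and in a fit of only the 2 groups Tnf (0.176) and Lta (0.0923) both did.

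With XCT790, Osm alone of the 6 was called, 1.49-fold higher in KO-labelled cells (log2 0.58 ± 0.17, edgeR adjusted p = 0.027), where 9.51% of all tested genes were called, 7.4% higher and 2.11% lower. The libraries did not overlap, and the call was lost with limma-voom (0.0558) and without WT replicate 3 or 4 or KO-labelled replicate 1, 3 or 4 (0.0534 to 0.0843). Lif differed by 0.50 ± 0.21 (edgeR adjusted p = 0.13) and was called without WT replicate 4 (0.72, 0.0449). With CompA, Lif was 1.65-fold higher (log2 0.72 ± 0.2, edgeR adjusted p = 0.027), where 7.7% were called, 5.82% higher and 1.88% lower, again without overlap. That call was lost without WT replicate 1 or 3 or KO-labelled replicate 3 (0.0637 to 0.134). Osm under CompA differed by 0.35 ± 0.17 (edgeR adjusted p = 0.22) and was called without the second KO-labelled run (0.48, 0.0443). Il3 did not differ by genotype beyond its spread in any stimulated condition (edgeR adjusted p 0.60 to 0.95). Its log2 differences were 0.18 ± 0.45, -0.08 ± 0.51 and -0.48 ± 0.48, which does not show that its levels were equal.

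Whether an effect differed between genotypes was tested as an interaction. The stimulation effect differed for Csf2 alone, larger in KO-labelled cells by 1.93 ± 0.72 on the log2 scale (edgeR adjusted p = 0.039), where 33.7% of all tested genes were called, 17.2% higher and 16.5% lower. Its stimulated levels differed by 0.09 ± 0.4 and the unstimulated ones by -1.84 ± 0.6, the latter at 1 to 4 counts per KO-labelled library. The call was lost with library totals (1.69, 0.0718), with the unstimulated share subtracted (1.58, 0.15), without the second KO-labelled run (2.18, 0.0557) and without WT unstimulated replicate 1 or 2, WT stimulated replicate 1 or 3, or replicate 1 or 4 of either KO-labelled group (0.0537 to 0.0839). With the run as a fixed block in edgeR, Lta was called too (0.57, adjusted p = 0.0163), beside Csf2 (1.87, 0.00889). Osm, at 0.46 ± 0.23 (edgeR adjusted p = 0.12), was called with the unstimulated share subtracted (0.82, 0.0241), without the second KO-labelled run (0.68, 0.0187), and without WT unstimulated replicate 2 (0.63, 0.0257) or KO-labelled stimulated replicate 2 (0.62, 0.0359). For XCT790 the interaction was called by edgeR for 0 of the 6, with 0 at an unadjusted p under 0.05 and 0 by DESeq2 or limma-voom, where 24.7% of tested genes were called, 17.5% higher and 7.23% lower. For CompA it was called by edgeR for 0 of the 6, with Csf2 as 1 at an unadjusted p under 0.05 and 0 by DESeq2 or limma-voom without a block, where 21.6% were called, 15.6% higher and 5.99% lower. With the run as a fixed block in edgeR 3 members passed, all with lower values for the KO-labelled effect: Csf2 (-1.26, adjusted p = 0.0179), Tnf (-0.54, 0.0349) and Lta (-0.46, 0.0473). Same-run libraries deviated together between stimulation and CompA in KO-labelled cells but not in WT.

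Taking each gene over all 8 groups, most neighbours in the order of means overlapped. For Il3 the means ran from 10.3 CPM in stimulated KO-labelled cells through 9.05, 4.94, 3.54 and 2.22 to 2.1 CPM, each group overlapping the next, down to 0 unstimulated. For Lif the order began with stimulated KO-labelled cells, then 28.4 CPM with CompA in KO-labelled cells, 25.1 in stimulated WT, 17.5, 17.3 and 12.3 CPM, then 4.24 and 1.64 CPM unstimulated. Lif in stimulated KO-labelled cells overlapped no other group, and both unstimulated groups stood apart from each other. Tnf and Lta were both highest with CompA in KO-labelled cells, at 58.8 and 107 CPM, overlapping stimulation alone at 55.4 and 105 CPM. Csf2 was highest with CompA in WT (1.6 ± 0.876 CPM, SD, n = 4), and its 6 stimulated groups formed a chain of overlaps down to 0.71 CPM. Osm ran from 16.6 CPM in unstimulated WT to 6.65 CPM with XCT790 in WT, each group overlapping the next.

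**Figure D4:**
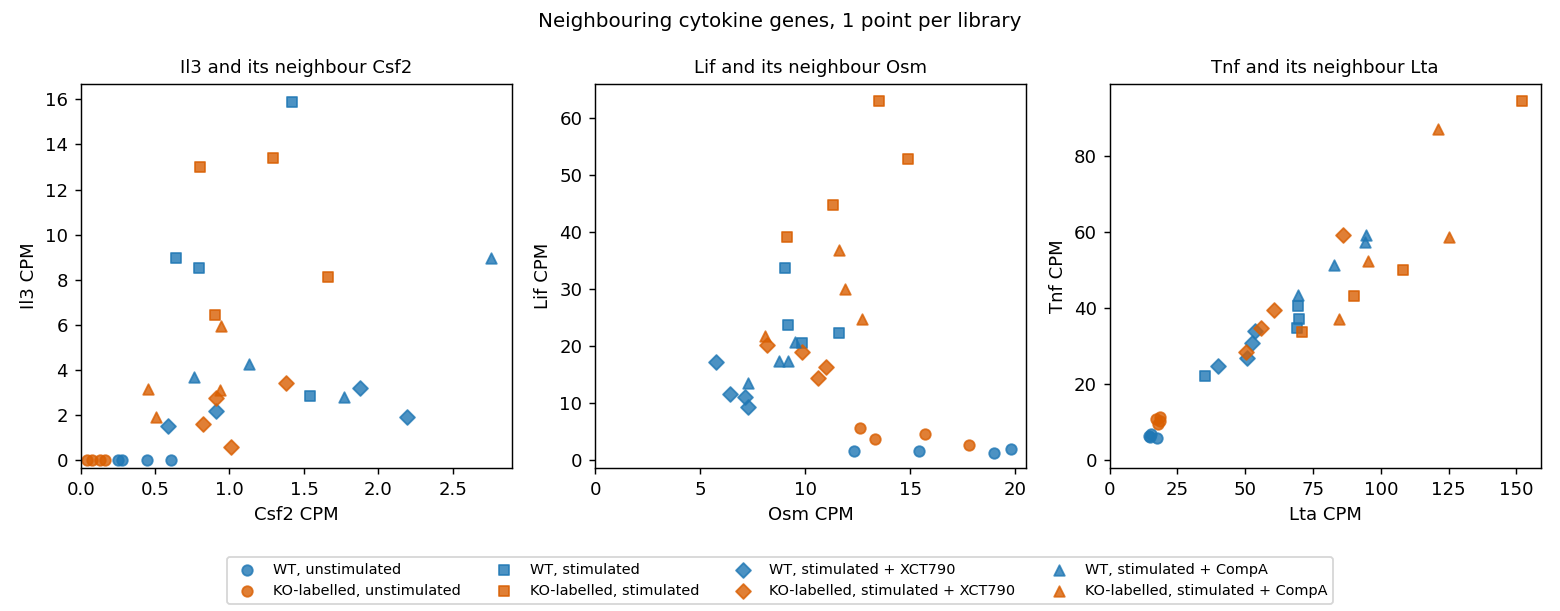
Levels of neighbouring genes against each other in CPM (linear axes), 1 point per library, with colour for genotype and shape for condition. Tnf rises with Lta over all conditions, Lif and Osm run apart between unstimulated and stimulated libraries, and Il3 varies widely at a given Csf2 level.

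The 3 neighbouring pairs differed in how far their members moved together. Over the 24 stimulated libraries, Tnf and Lta had a Pearson correlation of log2 CPM of 0.93, and each was the other's closest gene among all tested. Il3 and Csf2 had 0.18 and Lif and Osm 0.71, and over all 32 libraries the values were 0.98 for Tnf and Lta, 0.77 for Il3 and Csf2 and -0.46 for Lif and Osm. These are descriptions: the libraries share 8 groups and the 2 replicates that stood out, so they are not independent points. Csf2 had only 8 to 46 counts per stimulated library, and counting noise at that depth lowers its correlations. The part of this noise in the value for Il3 and Csf2 was not tested. The Tnf to Lta ratio was 0.45 higher (log2) after stimulation in WT and 0.51 higher in unstimulated KO-labelled than in WT cells (exact two-sided permutation p = 0.0286 for each, the smallest that 4 against 4 can give). The Il3 to Csf2 ratio was 2.33 lower with XCT790 in KO-labelled cells (exact permutation p = 0.0286). The Lif to Osm ratio rose by 4.62 in WT and 3.88 in KO-labelled cells with stimulation (exact permutation p = 0.0286 for each). Over the 33 ratio comparisons made, none was under 0.05 after adjustment, and the lowest adjusted value was 0.10.

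Other genes with the most similar pattern over the 24 stimulated libraries were Bspry, Hsf2bp and Cep76 for Il3 (r = 0.80, 0.78 and 0.78) and Zbtb32, Gadd45g and Ifng for Lif (r = 0.84, 0.81 and 0.80). For Osm they were Tnfrsf25, Bcl3 and Gimap7 (r = 0.86, 0.86 and 0.85), and for both Tnf and Lta, after each other, Nfkbid and Jrk (r = 0.87 to 0.90). For Csf2 the highest values were lower, with Fam174b, St5 and AI506816 at 0.54, 0.53 and 0.52. Csf2 had 8 to 46 counts per stimulated library, where counting noise lowers a correlation. Ifng, the T helper 1 cytokine, also followed Lif over all 32 libraries (r = 0.93), while Gadd45g did not (r = -0.19).

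Next to the pairs, Acsl6, an acyl-CoA synthetase beside Il3, had no count in unstimulated libraries and averaged 1.5 CPM in stimulated WT and 2.69 CPM in stimulated KO-labelled cells. Unlike Il3 it was not called with XCT790 in WT (log2 -0.23, edgeR adjusted p = 0.72), and like Il3 it fell with XCT790 in KO-labelled cells (log2 -1.24, edgeR adjusted p = 0.042). It also fell with CompA, with log2 differences of -1.38 in WT and -2.36 in KO-labelled cells (edgeR adjusted p = 0.018 and 0.0006). Beside Lif and Osm, Sf3a1 rose with stimulation in both genotypes (log2 1.02 and 0.97), and Tbc1d10a (-0.45 and -0.50), Castor1 (-1.40 and -1.46) and Mtmr3 (-0.79 and -1.36) fell. Hormad2, at most 0.46 CPM on average in any group, was called higher in KO-labelled cells alone (1.35 and 1.75). On the Tnf side, Ltb, the partner that anchors lymphotoxin alpha, went opposite to Lta: it fell from 854 ± 185 to 339 ± 57.7 CPM in WT (SD, n = 4) and from 808 ± 64.1 to 250 ± 75.2 CPM in KO-labelled cells (log2 -1.33 ± 0.2 and -1.69 ± 0.2, edgeR adjusted p = 1.2e-06 and 1.2e-08). Lst1, a myeloid gene beside Ltb, was at 5.54 CPM in stimulated WT and 0.242 CPM in stimulated KO-labelled cells. On the Lta side, Ddx39b rose with stimulation (log2 0.9 and 1.08), Nfkbil1 fell (-0.27 and -0.27) and Atp6v1g2 was called in neither genotype (0.14 and -0.26).

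Of the 11 receptor chains for these cytokines, 10 were tested and all that were called with stimulation fell, 8 in WT and 10 in KO-labelled cells, where 38.8% and 42.4% of all tested genes were called lower. Their median log2 change was -1.30 and -1.78, beside -0.11 and -0.07 over all tested genes. The log2 change of the alpha chain Il3ra was -1.26 ± 0.2 in WT and -1.62 ± 0.2 in KO-labelled cells, and that of Csf2ra -1.33 ± 0.21 and -2.29 ± 0.22 (edgeR adjusted p at most 3.4e-06). The shared beta chain Csf2rb fell from 18.9 to 6.45 CPM in WT and from 14.9 to 3.32 CPM in KO-labelled cells, and its mouse-specific relative Csf2rb2 fell too. The 2 beta chain genes are near-identical copies, so their counts are uncertain. Among IL-6 family receptors, Il6st (gp130) was expressed at 127 to 235 CPM on average in all groups and was called lower in KO-labelled cells (log2 -0.89 ± 0.13), while Lifr fell to at most 3 counts per library in stimulated KO-labelled cells and Osmr had at most 3 counts in any library.

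Of the TNF family receptors, Tnfrsf1a was 74.5 CPM in unstimulated WT and 38.1 CPM after stimulation (log2 -0.97 ± 0.11, edgeR adjusted p = 5.9e-09), and fell by 1.15 ± 0.11 in KO-labelled cells. Tnfrsf1b stayed at 129 to 242 CPM on average and was called lower in KO-labelled cells (log2 -0.59 ± 0.14). Ltbr went from 10.6 to 3.15 CPM in WT and from 5.68 to 0.616 CPM in KO-labelled cells, and Tnfrsf14 fell in both (log2 -0.95 ± 0.15 and -1.24 ± 0.15). With XCT790 and CompA in WT 7 and 6 of the 10 fell while 12 of 12 macrophage markers did, where 20.2% and 21.3% of all tested genes were called lower. In KO-labelled cells, where 0 of those 12 markers were called with either inhibitor, 0 receptors fell, and 2 rose with XCT790 and 1 with CompA by edgeR. Of all tested genes there, 6.2% were called higher and 5.07% lower with XCT790, and 10.2% and 9.11% with CompA. The difference between genotypes was called for 6 of the 10 receptors with each inhibitor, all higher in the KO-labelled contrast, where 17.5% (XCT790) and 15.6% (CompA) of all tested genes were called higher. It was called higher for 11 of 12 macrophage markers with each inhibitor. The markers' part in the receptor changes was not tested.

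The lists below the receptors are read against the 73.3% (WT) and 81.7% (KO-labelled) of all tested genes that were called with stimulation, and a share near these is no result about a list. In the signalling below these receptors, 3 of 12 JAK-STAT genes rose and 7 fell with stimulation in WT, and 4 rose and 8 fell in KO-labelled cells, with medians of -0.40 and -0.71 beside -0.11 and -0.07 over all tested genes. Cish, a STAT5-induced feedback inhibitor, rose (log2 1.66 and 1.98), and Jak1 fell (-0.95 and -1.78). With XCT790 Cish fell in WT and KO-labelled cells (log2 -0.62 and -0.65), and between the inhibitors Cish and Socs1 were lower with XCT790 in both genotypes (Cish -1.27 and -0.77, Socs1 -1.10 and -0.76). Of 17 genes of TNF receptor signalling 5 rose and 6 fell in WT, and 7 rose and 5 fell in KO-labelled cells, with medians of 0.06 and 0.05. Nfkbib (1.71 and 1.98), Nfkb2 (1.83 and 1.44) and Relb (0.83 and 0.68) rose in both.

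Among 21 NFAT, AP-1, Rel and related factors, 7 rose in each genotype and 10 and 12 fell, with medians of -0.35 and -1.06. Irf4 rose (log2 5.42 and 5.06), as did Fosl1, from 0.0139 to 13.0 CPM in WT and from 0.0631 to 16.6 CPM in KO-labelled cells. Fos and Jun fell in KO-labelled cells (log2 -6.03 and -3.87). Fos and Jun were also lower in stimulated KO-labelled than WT cells (-3.83 and -1.91), in the contrast where the unstimulated share of WT differs. Of 11 factors that bind or destabilise cytokine messages, 6 rose and 2 fell in WT and 5 rose and 5 fell in KO-labelled cells, with medians of 0.45 and -0.19. Elavl1 (1.25 and 1.26) and Hnrnpd (1.03 and 1.26) rose, and Zfp36, which binds the AU-rich element of Tnf, fell by 2.83 in KO-labelled cells. Zc3h12d was higher with XCT790 in both genotypes (1.04 and 0.65).

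Of 5 genes around TNF processing 4 were tested, Ltb among them, and Adam17, the sheddase that frees membrane TNF, rose by 0.21 ± 0.09 in WT (edgeR adjusted p = 0.043).

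Other T cell cytokines moved with the same stimulus: 13 of 17 tested rose and 1 fell in WT, 12 rose and 2 fell in KO-labelled cells, where 34.5% and 39.3% of all tested genes were called higher. Their median was 2.02 and 2.42, beside 2.18 and 2.98 for the 6 members and -0.11 and -0.07 over all tested genes. Il2 rose by 7.12 and 6.77. With XCT790 3 of the 17 fell in KO-labelled cells, Ifng (-1.49), Fasl (-0.66) and Tnfsf14 (-0.72), and Ifng (-1.27) and Tnfsf14 (-0.78) fell in WT, where Tnfsf11 rose (0.64). With CompA none of the 17 fell in either genotype by edgeR, while Fasl (0.89), Il17f (1.54) and Il17a (1.46) rose in WT. Between the inhibitors Fasl was lower with XCT790 in WT (-1.12) and in KO-labelled cells (-1.02), as Lta was.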

How the data were processed

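The deposited values are whole-number counts of reads per gene, 1 file per library. Trimmomatic 0.36, HISAT2 2.1.0, SAMtools, HTSeq 0.9.1, R 3.4.4, DESeq2 1.18.1 and the mm10 build are named in the submitters' processing notes. The annotation and the strand setting of counting are not given in the sources used here, so reads of Csf2 and of the overlapping Gm12223 may not be told apart. The 5 summary lines of each file were left out. The 6 members and all gene lists were chosen with earlier results of these data known.

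Counts were tested with edgeR 4.0.16 (R 4.3.3): TMM factors, filterByExpr, a quasi-likelihood fit of all 32 libraries in 8 groups, 19 contrasts, and Benjamini-Hochberg adjustment over 12332 genes with a threshold of 0.05. Alternatives were other scalings, no filter, DESeq2 1.42.0, limma-voom (limma 3.58.1), only the groups compared, each library left out, the second KO-labelled run left out, the run as a block, and subtraction from stimulated WT counts of the unstimulated share. That share was the summed level of 93 genes, relative to the unstimulated library of the same run. These genes had at least 5 CPM in both unstimulated groups and under 2% of that level in the other stimulated groups. For every gene, the unstimulated level of the same run times the share was subtracted. This takes 1 share to hold for all genes, T cell genes included, which was not tested. A run is a set of 4 library numbers, 1 per condition of a genotype, read from the labels. Same-run libraries deviated together in all KO-labelled pairs (r = 0.19 to 0.69) and, in WT, between unstimulated and stimulated (0.37 to 0.56) and between the inhibitors (0.17 to 0.49), but not in the other WT pairs (-0.22 to 0.31). The block was a fixed term in edgeR within a genotype and for the interactions. It was a random term in limma-voom for KO-labelled against WT.

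All members, their receptors and Ltb were named. Of other lists, up to 4 genes with the smallest adjusted p per comparison were named. Of the 4 nearest annotated genes on each side of a pair, those tested were named. Ratios were the log2 of the count of 1 gene over that of its neighbour in the same library, with a pseudocount of 0.5 added to each count. An alternative pseudocount of 2 was chosen after seeing the data. Replicates differed by more than sampling noise (chi-square per degree of freedom at least 2.91). Library totals of 16020288 to 23687940 counts left Csf2 with 1 to 46 counts per library, and the bound for Il3 covers counting error only. The tests were checked on simulated counts.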

Additional observations from a re-analysis of the deposited data

Results flagged for a closer look

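Lta stood apart in 1 library of each of 2 groups. In stimulated WT cells replicate 2 held 35.1 CPM against 69.0 to 69.7 CPM in the others. That library also had the highest share of the unstimulated level, 0.348, and a macrophage marker sum of 1080 CPM, whose part in the value was not tested. In unstimulated WT cells replicate 1 held 17.5 CPM against 14.7 to 15.2 CPM. Of 46 groups of member values tested, 2 were called by Dixon's 95% limit, which chance reaches in about 1 of 20.

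The stimulation effect on Csf2 differed between genotypes by 1.93 on the log2 scale (edgeR adjusted p = 0.039), with 5 to 12 counts per unstimulated WT library and 1 to 4 per unstimulated KO-labelled library.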

How the results depend on the processing

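No value of the 6 genes reversed its direction while called. Of called values, 473 kept their side of the threshold and 28 lost it under the other settings, and of uncalled ones 500 kept it and 28 gained a call. With 1 library left out these numbers were 404, 60, 584 and 8. In stimulated KO-labelled against WT cells, 1 member was called in a fit of only the groups compared and 1 with the unstimulated share subtracted. With XCT790 the same contrast called 0 by limma-voom and 0 with the block, and with CompA it called 2 without the second KO-labelled run. CompA in WT called 1 with library totals, upper-quartile factors, RLE factors or DESeq2, 0 with no filter in edgeR and 4 with the block, which added Il3 (-0.839, adjusted p = 0.041) and Lta (0.5129, 0.00217); same-run libraries did not deviate together there. CompA in KO-labelled cells called 1 without the second run. XCT790 against CompA called 4 in WT with only the groups compared and 4 with the block. In KO-labelled cells it called 2 with upper-quartile factors, DESeq2, limma-voom or without the second run, 0 with only the groups compared and 3 with the block. The interaction with stimulation called 0 with library totals and 2 with the block, and that with CompA called 3 with the block (Csf2 -1.258, adjusted p = 0.0179, Tnf -0.5433, 0.0349, Lta -0.4636, 0.0473). With the block the unstimulated genotype difference of Tnf (0.0705) and that of Osm under XCT790 (0.0808) did not pass. Leaving out 1 library gave 1 to 3 members called between unstimulated genotypes, 2 to 3 stimulated, 0 to 1 with XCT790 and 0 to 1 with CompA. It gave 2 to 3 for XCT790 in KO-labelled cells, 0 to 2 for CompA in WT, 1 to 2 for CompA in KO-labelled cells, 1 to 2 and 0 to 1 for XCT790 against CompA in WT and KO-labelled cells, and 0 to 2 for the interaction with stimulation. The cause of these changes was not tested. Depth limits Csf2, at 1 to 46 counts per library, and Il3, at 0 counts in all 8 unstimulated libraries.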
